A study of Mus musculus with 2 samples.

Results

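IgG2b B cells from Peyer's patches of mice, which are lymphoid tissue in the wall of the small intestine, were described from their antibody heavy-chain and light-chain transcripts. An IgG2b cell was a cell barcode with exactly 1 productive heavy chain whose constant gene was called as IGHG2B. There were 193 such cells among 6241 cells with exactly 1 heavy chain. The Cre+ library held 100 of its 3294 cells in this class, and the Cre- library 93 of its 2947 cells. The other classes set beside them were IgG1 with 55 cells in the Cre+ library and 22 in the Cre- library, IgA with 207 and 557, and IgM with 1925 and 1542.

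Mice of the Cre+ library were H2-Ab1 fl/fl and carried Villin:Cre, a recombinase driven by an intestinal epithelial promoter, and thus lack the beta chain of MHC class II in the gut epithelium. Mice of the Cre- library, the controls, were also H2-Ab1 fl/fl and had no recombinase. Each library pooled CD45+ cells, that is white blood cells, enriched on magnetic beads from the Peyer's patches of 4 adult female mice, and receptor transcripts were sequenced by 10x Genomics droplet chemistry for 5' V(D)J. With 1 library per genotype no difference has a replicate check, mice of a pool cannot be told apart, and no p-value is given. Intervals of shares are exact 95% Clopper-Pearson intervals, and all intervals cover counting error only. The series' design text gives both groups the genotype without Cre, against the sample labels, and H2-Ab1 was not measured, so the genotypes stand here as the labels give them.

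A B cell first makes IgM and IgD, and class switch recombination then joins its rearranged V, D and J segments to a constant gene further along chromosome 12 by removing the DNA between them. In the mouse the genes lie in the order Ighm, Ighd, Ighg3, Ighg1, Ighg2b, Ighg2c, Ighe, Igha, so a cell that has switched to IgG2b has lost Ighg3 and Ighg1 from that chromosome and can still switch to IgA. Before a switch, the target gene is transcribed from its own promoter into a germline transcript that has no V gene. IgG2b binds Fc receptors and complement, and TGF-beta, the cytokine that directs switching to IgA in the gut, also promotes switching to IgG2b in mouse B cells. On the GRCm38 assembly Ighg2b lies on chromosome 12 at 113304314 to 113307933, between Ighg1 at 113326541 to 113330523 and Ighg2c at 113287389 to 113288932, and Igha lies at 113256204 to 113260236.

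The depth was 355258 UMIs, counts of separate molecules, from 22003594 reads in the Cre+ library, and 355985 UMIs from 19982305 reads in the Cre- library. The libraries shared 10 barcodes, of which 0 were IgG2b cells. A heavy chain of 2 or more kinds was found in 145 barcodes of the Cre+ library and in 83 of the Cre- library, and these were left out. They held an IgG2b chain in 9 of 145 (6.21%) and 5 of 83 (6.02%), each such barcode having 2 or more chains. A contig of a T cell receptor chain was found in 2 of 100 IgG2b cells of the Cre+ library and in 1 of 93 of the Cre- library, and it was productive in 0 of them, which allows shares of up to 3% and 3.23%. IGHG2B and its neighbour IGHG2C are similar in sequence. No cell of either library carried IGHG2C on its productive heavy chain, which allows up to 0.0916% in the Cre+ library and 0.102% in the Cre- one, and how far IgG2c transcripts were counted as IgG2b was not tested, since the tables hold no constant-region sequence.

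IgG2b was 3.05% of the cells with a constant gene in the Cre+ library (2.49 to 3.70) and 3.17% in the Cre- library (2.56 to 3.87), a difference of -0.11 percentage points (-1.01 to 0.771). Of the switched cells, which carry any IgG or IgA, it made up 27.4% in the Cre+ library (100 of 365, interval 22.9 to 32.3) and 13.8% in the Cre- library (93 of 672, interval 11.3 to 16.7). That difference of 13.6 points (8.22 to 19.1) rests on the largest Cre- lineage, which holds 416 of the 557 IgA cells there. Once this lineage was left out, IgG2b made up 36.3% of the Cre- switched cells (93 of 256, interval 30.4 to 42.5). Leaving out the largest Cre+ lineage also raised the share in its own library, to 32.2% (100 of 311, interval 27.0 to 37.7). Of the IgG cells alone, IgG2b was 63.3% in the Cre+ library (100 of 158, interval 55.3 to 70.8) and 80.9% in the Cre- library (93 of 115, interval 72.5 to 87.6). With each lineage counted once per class the share of IgG cells in the Cre+ library was 78.2%, and it differed from that of the Cre- library by -4.37 points (-15.2 to 6.85). IgG3 was seen in 3 cells of the Cre+ library and in 0 of the Cre- library.

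The middle of the range of heavy-chain transcripts per IgG2b cell lay near that of the other classes, and a few cells held very many. Heavy-chain UMIs of Cre+ IgG2b cells ran between 1 and 3081 with a median of 9.5 (quartiles 4 and 22.3), and those of Cre- IgG2b cells between 1 and 7068 with a median of 13 (quartiles 6 and 25). IgM cells had medians of 8 and 9, IgA cells 13 and 18, and IgG1 cells 15 and 12.5. Above the 90th percentile of IgM cells, 19 UMIs in the Cre+ and 20 UMIs in the Cre- library, lay 28% of the IgG2b cells of the Cre+ library (19.5 to 37.9), against 9.45% of IgM cells (8.18 to 10.9), and 34.4% of Cre- IgG2b cells (24.9 to 44.98), against 9.21% of IgM cells (7.81 to 10.8). The other switched classes reached past it too, with 40% of IgG1 cells and 36.7% of IgA cells in the Cre+ library, and 27.3% and 39.7% in the Cre- library.

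More than 500 heavy-chain UMIs were found in 6 of 100 IgG2b cells of the Cre+ library and in 5 of 93 of the Cre- library. These few cells held 83.8% and 88.7% of all heavy-chain UMIs of the class. The same level was reached by 7 of 207 IgA cells and 7 of 1925 IgM cells in the Cre+ library, and by 8 of 557 IgA cells and 5 of 1542 IgM cells in the Cre- library. It was reached by 0 of 55 and 0 of 22 IgG1 cells, which allows up to 5.45% and 13.6%. Plasma cells are known to hold far more antibody mRNA than resting B cells, but gene expression of these cells was not used here and their type was not tested.

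**Figure D1:**
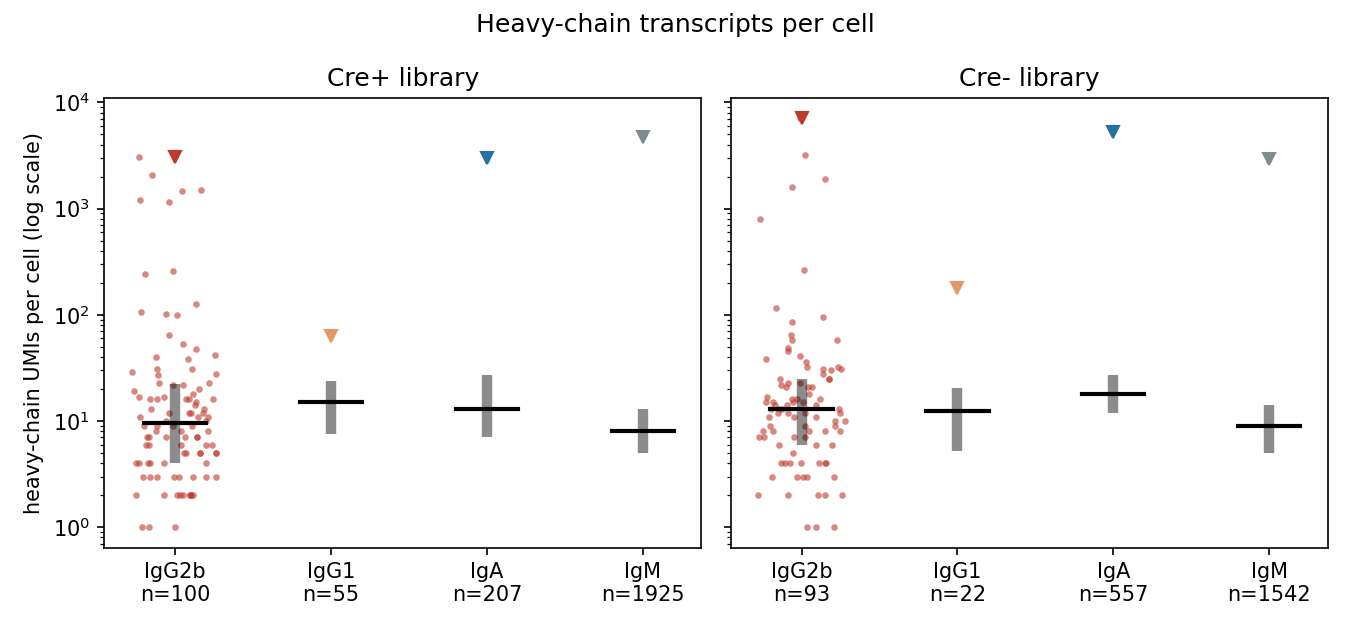
Heavy-chain UMIs per cell on a log scale, by class, in the Cre+ library on the left and the Cre- library on the right. Red points are single IgG2b cells, grey bars the interquartile range, black lines the median and triangles the highest cell of each class. The medians lie between 8 and 18 UMIs in all classes, while 6 and 5 IgG2b cells lie above 500.

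These cells used different V genes. In the Cre+ library they were an IGHV1-69 cell with 3081 heavy-chain UMIs, an IGHV1-39 cell with 2052, an IGHV6-3 cell with 1485, an IGHV5-9 cell with 1461, an IGHV1-78 cell with 1198 and an IGHV2-3 cell with 1150. The Cre- library had an IGHV1-54 cell with 7068, an IGHV6-6 cell with 3200, an IGHV5-4 cell with 1887, an IGHV14-1 cell with 1581 and an IGHV1-64 cell with 793. No V gene occurred in both lists. The next cell below had 258 UMIs in the Cre+ library and 264 in the Cre- library, so no IgG2b cell lay between these levels. The heavy-chain CDR3, the part of the receptor that spans the V-D-J joint, is shown for the 2 cells with the most UMIs of each library to let their unlike joints be read.
Cre+ IGHV1-69 with IGHJ2: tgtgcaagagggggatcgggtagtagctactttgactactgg
Cre+ IGHV1-39 with IGHJ3: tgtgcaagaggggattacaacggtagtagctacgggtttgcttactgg
Cre- IGHV1-54 with IGHJ3: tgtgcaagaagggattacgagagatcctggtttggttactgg
Cre- IGHV6-6 with IGHJ2: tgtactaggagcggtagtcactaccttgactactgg

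IgG2b cells held 4.40 light-chain UMIs per heavy-chain UMI in the Cre+ library (median, 3 to 5.16) and 3.28 in the Cre- library (2.69 to 4.08). Both intervals include the 3.5 of IgM cells in either library. IgA cells had 2.12 in the Cre+ library and 0.316 in the Cre- library, where 416 of 557 IgA cells belong to a single lineage. A lambda light chain, the rarer of the mouse light chain types, was carried by 2 of 96 IgG2b cells with a light chain in the Cre+ library and by 4 of 92 in the Cre- library. Both lambda cells of the Cre+ library used IGLV1, and those of the Cre- library were 2 with IGLV1 and 2 with IGLV2. IgM cells carried lambda in 99 of 1909 and 73 of 1525 cells, and the intervals overlapped. No light chain was found in 4 IgG2b cells of the Cre+ and 1 of the Cre- library.

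The V and J genes of IgG2b cells overlapped in use with those of IgM cells. IgG2b cells used 42 IGHV genes in the Cre+ library and 45 in the Cre- library, 29 of them in both, and fell into 93 and 85 lineages. The IGHV1 family, the largest in the mouse, made up 62% of the IgG2b cells of the Cre+ library (51.7 to 71.5) against 61.0% of IgM cells, and 57.0% of Cre- IgG2b cells (46.3 to 67.2) against 60.7% of IgM cells. The IGHV5, IGHV3, IGHV9, IGHV6, IGHV14 and IGHV2 families lay between 2% and 10.8%, with intervals that overlapped those of IgM in both libraries. IGHV8 and IGHV10, named after their values were seen, had 1 IgG2b cell each in each library, against 3.74% and 3.76% of IgM cells for IGHV8 and 2.49% and 2.33% for IGHV10, and these intervals also overlapped. IGHJ2 was the most used J gene, at 36% and 35.5% of IgG2b cells, and IGHJ1, IGHJ3 and IGHJ4 lay between 17.2% and 25.8%. Each interval of a J gene in IgG2b cells included its IgM share.

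**Figure D2:**
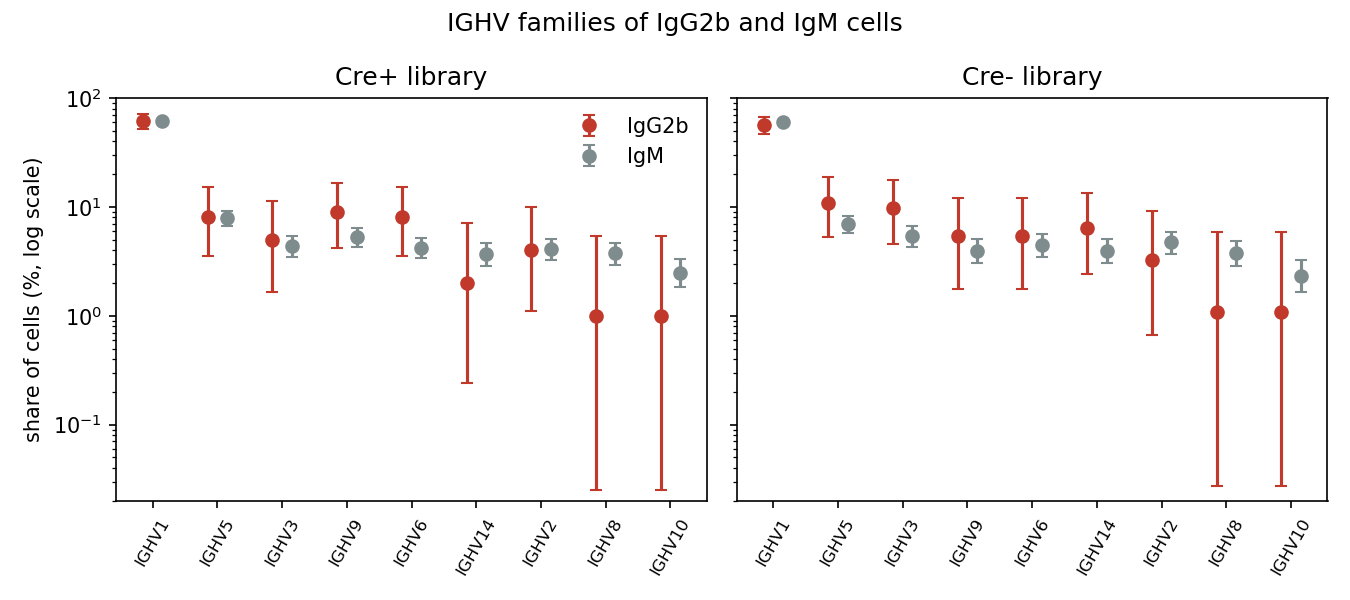
Share of cells in 9 IGHV families on a log scale, in IgG2b cells (red) and IgM cells (grey), with exact 95% intervals, for the Cre+ library on the left and the Cre- library on the right. The IgG2b and IgM intervals overlap in every family shown.

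Among single V genes, IGHV3-6 was used by 5 IgG2b cells of the Cre+ and 9 of the Cre- library, which fell into 5 and 7 lineages, and IGHV1-26 by 5 and 8, in 5 and 8 lineages. IGHV9-3 was used by 6 and 3 cells, IGHV1-72 by 5 and 3, IGHV1-64 by 6 and 1, IGHV5-17 by 1 and 5, IGHV1-39 by 4 and 1, and IGHV1-53 and IGHV1-55 by 3 and 2 each. Intervals that did not overlap between IgG2b and IgM cells were found for 1 of 41 IGHV genes with 20 or more cells in the Cre+ library (2.44%) and for 0 of 29 in the Cre- library (0%). The gene was IGHV6-3, on chromosome 12 at 114391712 to 114392010, which was used by 8 of 100 IgG2b cells of the Cre+ library (8%, 3.52 to 15.2) against 2.39% of IgM cells (1.75 to 3.17), and by 1 of 93 IgG2b cells of the Cre- library against 2.98% of IgM cells. With each lineage counted once, its share in IgG2b cells of the Cre+ library was 7.53% (3.08 to 14.9). The IgM interval given above counts every cell, 46 cells in 43 lineages, so these intervals are not counted alike. Whether they overlap with IgM lineages also counted once was not tested.

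The 8 IGHV6-3 cells belonged to 7 lineages and used all 4 IGHJ genes, with 1485, 258, 40, 31, 31, 22, 4 and 2 heavy-chain UMIs. Of their J ends, 6 of 8 differed from the unswitched sequence (34.9% to 96.8%), against 17 of 46 IGHV6-3 IgM cells of that library (23.2% to 52.5%), and the intervals overlap. Of the 9 IGHV6-3 IgA cells of that library, 8 differed (51.8% to 99.7%). IgA cells of the Cre+ library used IGHV6-3 in 9 of 207 cells, and 2 of the 7 IGHV6-3 lineages with an IgG2b cell also held an IgA cell, as described with the lineages.

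The most used kappa gene was IGKV10-96, in 9 of 96 IgG2b cells of the Cre+ library (9.38%, 4.38 to 17.05) against 5.45% of IgM cells, and in 8 of 92 of the Cre- library (8.70%, 3.83 to 16.4) against 4.66% of IgM cells. Each of these cells came from a lineage of its own. IGKV6-23 followed with 4 and 4 cells, IGKV1-117 with 4 and 3, IGKV14-111 with 6 and 1, and IGKV2-137 with 4 and 3. The median heavy CDR3 was 14 amino acids long in IgG2b cells of both libraries and in IgM cells of both libraries. Its mean net charge was -0.23 in IgG2b cells of the Cre+ and -0.31 in those of the Cre- library, against -0.37 and -0.40 in IgM cells, differences that are small beside the spread between cells (SD 1.04 to 1.20).

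Somatic hypermutation, the introduction of point mutations into receptor genes in germinal centres, could be read here only at the ends of the CDR3, since the tables give no V-region sequence. The last 9 nucleotides before the final codon of the CDR3 come from the IGHJ gene, and each cell was compared with the most common sequence of its IGHJ gene in IgM and IgD cells of both libraries. These windows are shown because all mismatches are counted against them.
IGHJ1: ttcgatgtc
IGHJ2: tttgactac
IGHJ3: tttgcttac
IGHJ4: atggactac
Nucleotides trimmed or added at the D-J joint also give mismatches, and IgM cells serve as the background for these. At the first base of the window 15% of IgG2b cells of the Cre+ library and 20.4% of those in the Cre- library differed, against 11.6% of IgM cells in both. At the last base 6% and 4.30% of IgG2b cells differed, against 0.312% and 0.713% of IgM cells.

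A mismatch was found in 31% of IgG2b cells of the Cre+ library (31 of 100, interval 22.1 to 41.0), against 15.01% of IgM cells (13.4 to 16.7). In the Cre- library it was found in 40.9% of IgG2b cells (38 of 93, interval 30.8 to 51.5), against 15.4% of IgM cells (13.6 to 17.3). The differences from IgM were 16.0 points (6.96 to 26.1) and 25.5 points (15.2 to 36.3). Weighted to the IGHJ usage of IgG2b cells, the IgM background was 14.7% and 16.1%. The share in IgG2b cells was 9.86 points lower in the Cre+ than in the Cre- library, with an interval of -23.7 to 4.37.

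For IGHJ4 a mismatch was found in 7 of 25 IgG2b cells against 15 of 480 IgM cells in the Cre+ library, and 9 of 20 against 16 of 389 in the Cre- library. IGHJ3 gave 9 of 19 IgG2b cells against 15.1% of IgM cells, and 12 of 24 against 16.1%. For IGHJ2 the IgG2b share was 36.1% (20.8 to 53.8) in the Cre+ library, an interval that includes the 28.4% of IgM cells, and 48.5% (30.8 to 66.5) in the Cre- library, against 29.7% of IgM cells (25.8 to 33.7). For IGHJ1 there were 2 of 20 and 1 of 16 IgG2b cells, too few to set apart from the 4.27% and 3.14% of IgM cells.

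Mismatches in the last codon of the window, farthest from the joint, were found in 10 of 100 IgG2b cells of the Cre+ library (4.90% to 17.6%), against 1.71% of IgM cells, and in 9 of 93 of the Cre- library (4.52% to 17.6%), against 1.56% of IgM cells. Among the mismatched cells, exactly 1 base differed in 18 of 31 IgG2b cells of the Cre+ library, against 28.7% of mismatched IgM cells, and in 24 of 38 of the Cre- library, against 31.6%. Single-base changes at the first base of the window, next to the joint, were also found and are not printed. A C at the first base of IGHJ2 was such a change, in 3 Cre+ and 5 Cre- IgG2b cells. Examples of single-base changes farther from the joint are given with the differing base in capitals, each found in 1 or 2 IgG2b cells of its library. The IGHJ2 examples of the Cre+ library come from the same IGHV1-39 lineage.
IGHJ2, Cre+: tttgactGc
IGHJ2, Cre+: tttgacCac
IGHJ4, Cre+: atggactaT
IGHJ4, Cre+: atggCctac
IGHJ2, Cre-: tttgactGc
IGHJ3, Cre-: tttgcttaT
IGHJ4, Cre-: atggactCc
IGHJ4, Cre-: atggCctac

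The V end of the CDR3 was read in the same way, over 6 nucleotides after its first codon. It differed from the unswitched sequence of the V gene in 48 of 97 IgG2b cells of the Cre+ library (49.5%, 39.2 to 59.8), against 24.0% of IgM cells (22.1 to 26.0), and in 35 of 93 of the Cre- library (37.6%, 27.8 to 48.3), against 22.7% of IgM cells (20.6 to 24.9). Either end differed in 59% and 66.7% of IgG2b cells, against 34.1% and 33.3% of IgM cells. IgA cells of the Cre+ library had a J mismatch in 34.3% and IgG1 cells in 16.4%, where 27 of 55 IgG1 cells belong to a single lineage. In the Cre- library 10 of 22 IgG1 cells had one, and IgA cells stood at 9.34% where 416 of 557 cells belong to a single lineage. The V end differed in 42.0% of IgA and 34.0% of IgG1 cells of the Cre+ library, and in 11.8% and 59.1% in the Cre- library. The last codon of the J window differed in 19.8% of IgA and 3.64% of IgG1 cells of the Cre+ library. In the Cre- library it differed in 4.67% and 22.7%.

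**Figure D3:**
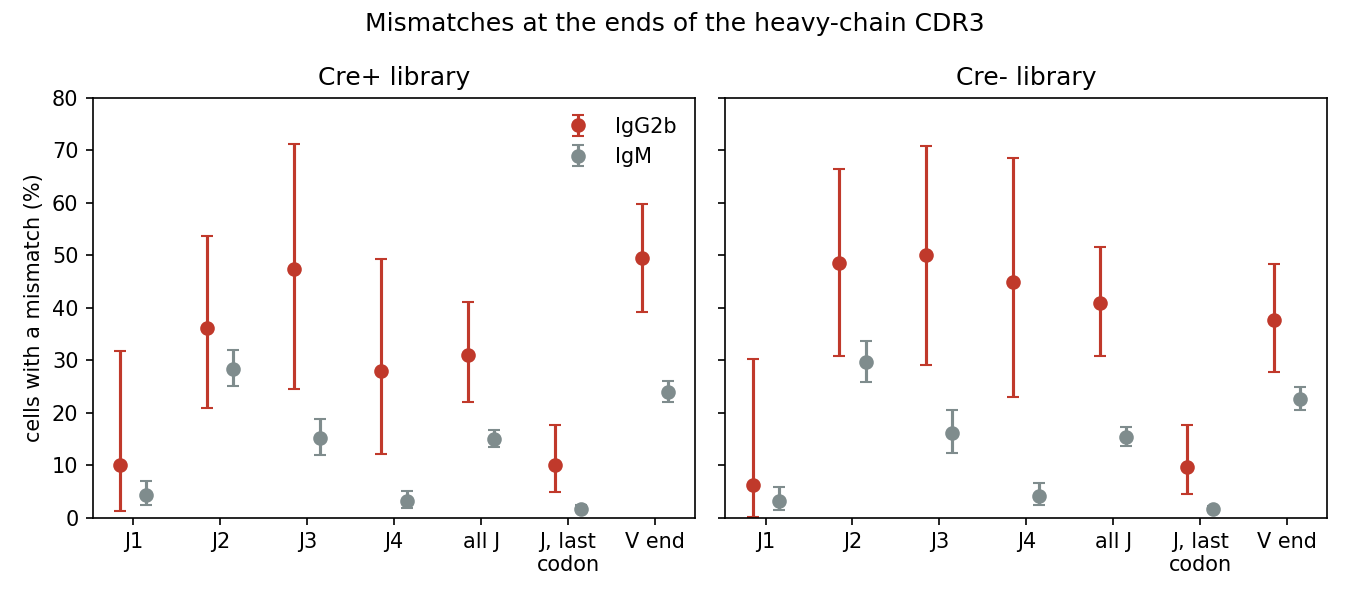
Share of cells with a mismatch at the ends of the heavy-chain CDR3 in IgG2b cells (red) and IgM cells (grey), with exact 95% intervals, for the Cre+ library on the left and the Cre- library on the right. The IgG2b share lies above the IgM share in every column, and the intervals do not overlap for J3, J4, all J genes, the last codon and the V end.

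Cells of 1 library were joined into a lineage where they had their IGHV gene, their IGHJ gene and the length of the CDR3 in common and each had a neighbour with at least 85% of CDR3 nucleotides identical. In lineages of 2 or more cells stood 21 of 100 IgG2b cells of the Cre+ library (21%, 13.5 to 30.3), against 5.51% of IgM cells, and 18 of 93 of the Cre- library (19.4%, 11.9 to 28.9), against 4.15% of IgM cells. IgG1 cells were in such lineages in 76.4% and 45.5%, and IgA cells in 55.1% and 81.5%. A cell of the other library, with which no lineage can be shared, met the same rule for 4 IgG2b cells of the Cre+ and 2 of the Cre- library, and for 3.69% and 4.60% of IgM cells. When the light V gene had to match as well, 14 of 100 IgG2b cells of the Cre+ library and 16 of 93 of the Cre- library remained, against 1.19% and 0.584% of IgM cells.

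IgG2b lineages were small. No lineage with an IgG2b cell had more than 3 cells, in 14 such lineages of the Cre+ and 10 of the Cre- library. Only IgG2b cells made up 4 of the 14 in the Cre+ library and 5 of the 10 in the Cre- library. An IgA cell was present in 4 and 2 lineages, an IgM cell in 3 and 2, an IgD cell in 2 and 0, and an IgG1 cell in 2 and 0. Where the light V gene matched too, 8 lineages were left in each library. IgG2b alone made up 3 of those in the Cre+ library and 5 in the Cre- library, 2 and 2 held an IgA cell, 2 and 0 an IgM cell, and 1 and 0 an IgG1 cell.

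**Figure D4:**
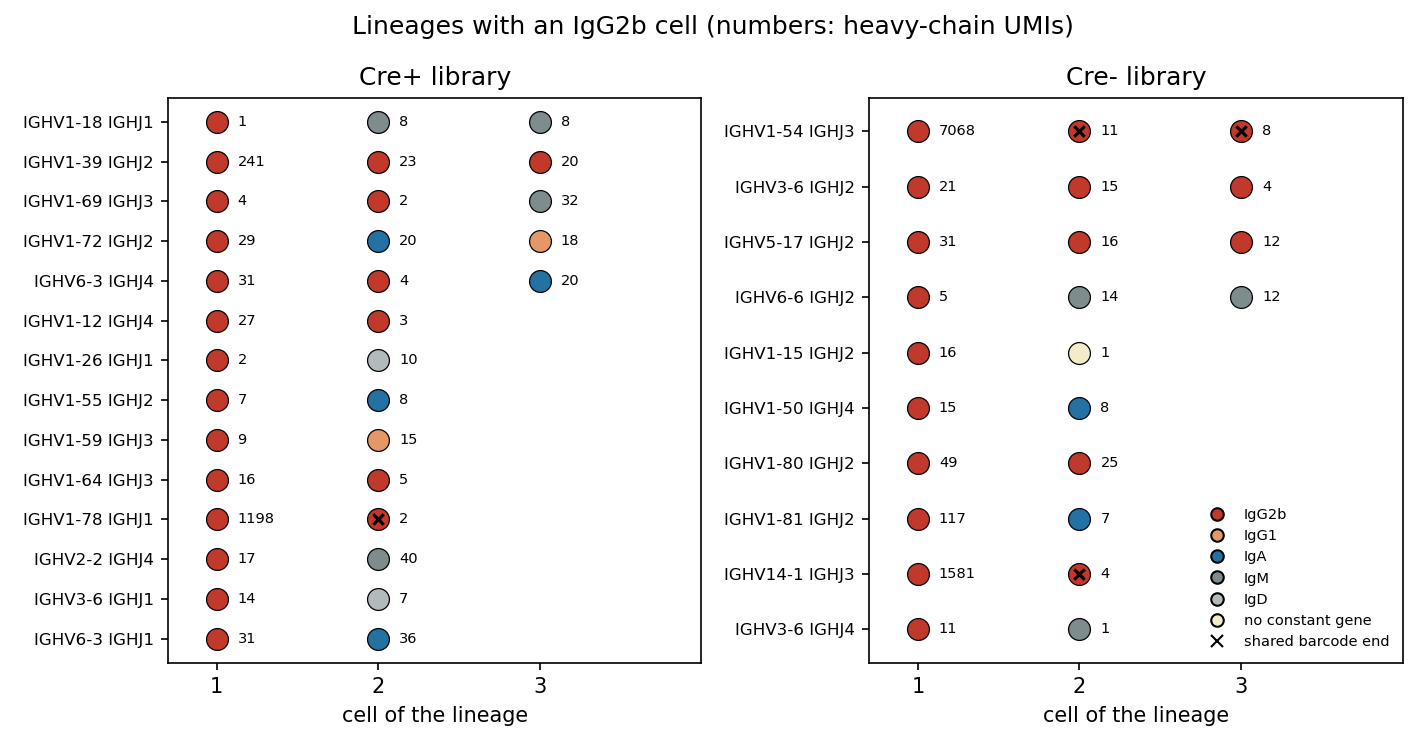
All lineages of 2 or more cells that hold an IgG2b cell, 14 in the Cre+ library on the left and 10 in the Cre- library on the right. Each circle is a cell coloured by class, the number beside it is its heavy-chain UMIs, and a cross marks a cell whose barcode ends like that of a cell with more UMIs in the same lineage.

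The largest lineage of IgG2b cells alone in the Cre+ library used IGHV1-39 and IGHJ2, with IGKV4-53 in all 3 cells. Its CDR3s, with 241, 23 and 20 heavy-chain UMIs, were 3 different sequences, shown with the variable bases in capitals.
IgG2b, 241 UMIs: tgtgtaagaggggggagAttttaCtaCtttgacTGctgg
IgG2b, 23 UMIs: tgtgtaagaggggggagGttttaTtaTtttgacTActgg
IgG2b, 20 UMIs: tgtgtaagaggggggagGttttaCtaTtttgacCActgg
Of their light-chain CDR3s, that of the cell with 241 UMIs differed from the one the other cells shared.

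The Cre- library had an IGHV3-6 lineage with IGHJ2 and IGKV3-12, in which the cells with 21 and 4 UMIs shared a CDR3 and the cell with 15 UMIs differed from them at 1 base, in capitals.
IgG2b, 21 and 4 UMIs: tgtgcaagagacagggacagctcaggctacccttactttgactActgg
IgG2b, 15 UMIs: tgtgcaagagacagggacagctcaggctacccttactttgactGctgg
An IGHV5-17 lineage of the same library, with IGHJ2 and IGKV6-15, had 3 cells with 31, 16 and 12 UMIs, an identical heavy CDR3 and 3 different light CDR3s.
IgG2b, all 3 cells: tgtgcaaggccgggacttgactactgg
Light, 31 UMIs: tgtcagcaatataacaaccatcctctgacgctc
Light, 16 UMIs: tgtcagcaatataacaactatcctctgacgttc
Light, 12 UMIs: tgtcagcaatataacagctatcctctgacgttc

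IgG2b shared a lineage with IgA, the class downstream of it on the chromosome, and a light V gene, in 2 lineages of each library. In the Cre+ library both used IGHV6-3. The pair with IGHJ1 and IGKV3-2, with an identical light CDR3, differed at 3 heavy-chain bases.
IgG2b, 31 UMIs: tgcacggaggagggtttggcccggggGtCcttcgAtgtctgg
IgA, 36 UMIs: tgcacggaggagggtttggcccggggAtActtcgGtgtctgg
The lineage with IGHJ4 and IGKV14-111 held 2 IgG2b cells with the same heavy CDR3 and an IgA cell that differed at 4 bases, while the light CDR3 of the IgA cell was of another length.
IgG2b, 31 and 4 UMIs: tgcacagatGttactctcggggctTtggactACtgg
IgA, 20 UMIs: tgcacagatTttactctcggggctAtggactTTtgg
In the Cre- library an IgG2b cell with 15 UMIs and an IgA cell with 8 shared an IGHV1-50 heavy CDR3 and IGKV8-30, and an IgG2b cell with 117 UMIs and an IgA cell with 7 shared an IGHV1-81 heavy CDR3 and IGKV4-57. In both pairs the heavy CDR3s were identical, and the light CDR3s had the same length and differed at a single base.
IGHV1-50, IgG2b and IgA: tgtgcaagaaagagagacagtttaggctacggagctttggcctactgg
IGHV1-81, IgG2b and IgA: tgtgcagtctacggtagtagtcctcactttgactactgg

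Links to unswitched cells and to IgG1 that also shared the light V gene were found in 3 lineages, all of the Cre+ library. By the heavy-chain rule alone, 4 of 100 Cre+ IgG2b cells had an IgM cell in their lineage. A cell of the other library met that rule for 4 of 100 as well. An IGHV1-69 lineage with IGHJ3 and IGKV10-94 held 2 IgG2b cells with 4 and 2 UMIs and an IgM cell with 32 UMIs. The light CDR3 of the IgM cell had the length of the one the IgG2b cells shared but was not identical to it.
IgG2b, 4 and 2 UMIs: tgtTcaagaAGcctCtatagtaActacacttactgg
IgM, 32 UMIs: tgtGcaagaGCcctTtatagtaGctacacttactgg
An IGHV2-2 pair with IGHJ4 and IGKV13-84 had an IgG2b cell with 17 UMIs and an IgM cell with 40, different at 5 bases. Their light CDR3s had the same length but were not identical.
IgG2b, 17 UMIs: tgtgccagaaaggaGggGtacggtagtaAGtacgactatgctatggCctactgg
IgM, 40 UMIs: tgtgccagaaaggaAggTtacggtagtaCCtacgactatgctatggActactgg
IgG1, encoded upstream of Ighg2b, was tied to it through IGHV1-72, IGHJ2 and IGKV5-39, in an IgG2b cell with 29 UMIs and an IgG1 cell with 18 that had the same light CDR3. An IgA cell with another light V gene was joined to them by the rule on the heavy chain alone, and all 3 are printed for comparison.
IgG2b, 29 UMIs: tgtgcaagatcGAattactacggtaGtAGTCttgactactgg
IgG1, 18 UMIs: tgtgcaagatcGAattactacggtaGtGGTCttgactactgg
IgA, 20 UMIs: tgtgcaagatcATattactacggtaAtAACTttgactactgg

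Some of the IgG2b lineages with 1 CDR3 rested on barcodes that resembled each other. The last 8 bases of the barcode were the same in 1 of 8 pairs of IgG2b cells of the same lineage in the Cre+ library and in 4 of 11 pairs in the Cre- library. Among pairs of IgG2b cells of different lineages they were the same in 4 of 4942 and 2 of 4267. In each of the lineages concerned 1 cell had many UMIs and its partners few. These were the IGHV1-78 cells with 1198 and 2 UMIs in the Cre+ library, and the IGHV1-54 cells with 7068, 11 and 8 UMIs and the IGHV14-1 cells with 1581 and 4 UMIs in the Cre- library. Heavy and light CDR3s were identical within each of these lineages. Without the low cells, lineages of 2 or more held 19.2% of Cre+ IgG2b cells and 14.4% of Cre- IgG2b cells. The shares with a matching light V gene and the counts of lineages of IgG2b alone, given above, still include these lineages. The cause of the shared ends was not tested.

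A heavy CDR3 of IGHV1-18 and IGHJ1 was found in 7 barcodes of the Cre+ library. It was the single heavy chain of an IgG2b cell with 1 UMI, it stood with IGHG2B and 2 UMIs beside a second heavy chain in 4 barcodes, and it was the heavy chain of 2 IgM cells with 8 UMIs each. Their light chains had 6 different CDR3s, and the source of these transcripts was not tested.
IGHV1-18: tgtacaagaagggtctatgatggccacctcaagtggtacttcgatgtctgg

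The tables also list contigs with a constant gene but no V gene, and their frequency differed between IgG2b and IgM cells. A contig of IGHA without a V gene was found in 11 of 100 IgG2b cells of the Cre+ library (5.62% to 18.8%) and in 9 of 93 of the Cre- library (4.52% to 17.6%). IgM cells, which set the background, had one in 3 of 1925 (0.156%) and 6 of 1542 (0.389%), at median depths of 8 and 9 heavy-chain UMIs against 9.5 and 13 in IgG2b cells. IgD cells had one in 6 of 986 and 2 of 723. IgA cells of the Cre+ library had one in 13 of 207 (6.28%, 3.39 to 10.5), an interval that overlaps that of IgG2b cells. Those of the Cre- library, where 416 of 557 IgA cells belong to a single lineage, had one in 6 of 557 (1.08%, 0.396 to 2.33). IgG1 cells had one in 0 of 55 and 1 of 22, which leaves IgG1 too few cells to be set apart from IgG2b in either library.

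The IgG2b cells with such an IGHA contig were not the cells with the most transcripts. They had a median of 5 heavy-chain UMIs in the Cre+ library and 7 in the Cre- library, against 11 and 13 in the IgG2b cells without one. Up to 30 heavy-chain UMIs, the shares were 11 of 80 IgG2b cells against 3 of 1858 IgM cells in the Cre+ library, and 8 of 72 against 6 of 1483 in the Cre- library. The contigs had a median of 2 UMIs in the Cre+ library and 5 in the Cre- library, and the cells used 10 and 8 different V genes. Of the 11 contigs in the Cre+ library 2 carried an IGHJ gene, 4 were annotated with the T cell receptor segment TRAJ7 and 5 had no J segment. Of the 9 contigs in the Cre- library 5 carried an IGHJ gene, 1 was annotated as TRAJ13 and 3 had no J segment. The IGHJ gene was that of the cell's own heavy chain in 1 contig of the Cre+ library and in 0 of the Cre- library.

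**Figure D5:**
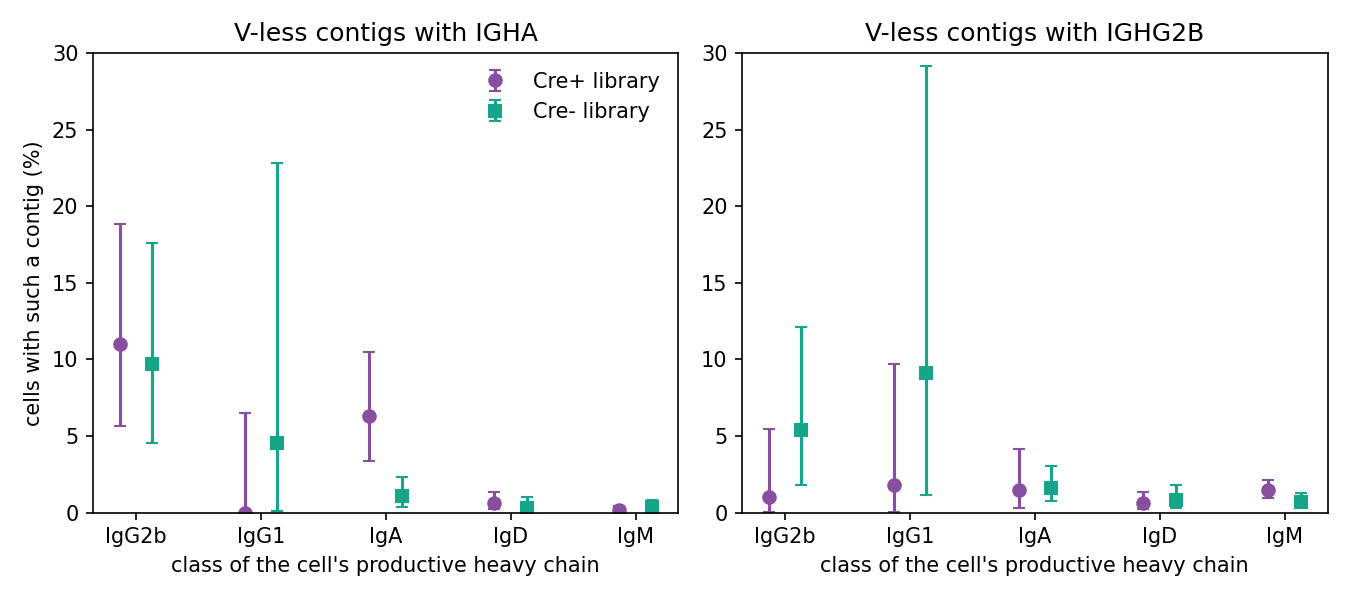
Share of cells with a contig that has no V gene, by the class of the cell's productive heavy chain, with exact 95% intervals, in the Cre+ library (purple circles) and the Cre- library (green squares). IGHA contigs, on the left, reach 11% and 9.68% in IgG2b cells, 6.28% and 1.08% in IgA cells, 0% and 4.55% in IgG1 cells and at most 0.609% in IgD and IgM cells. In the Cre- library 416 of the 557 IgA cells belong to a single lineage. IGHG2B contigs, on the right, lie between 0.609% and 1.62% in IgA, IgD and IgM cells. In IgG2b cells they stand at 1% and 5.38%, and in IgG1 cells at 1.82% and 9.09%.

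IGHG2B itself appeared without a V gene in 28 of 1925 IgM cells of the Cre+ library and in 11 of 1542 of the Cre- library. In 27 of these 28 contigs, and in 10 of 11, the annotation gave the J segment as TRAJ13, a T cell receptor gene. In IgA cells IGHG2B contigs without a V gene were found in 3 of 207 and 9 of 557 cells, and 0 of them carried the TRAJ13 label while 3 and 8 carried an IGHJ gene. IgG2b cells had an IGHG2B contig without a V gene in 1 of 100 and 5 of 93 cells, and IgG1 cells in 1 of 55 and 2 of 22. What these contigs are was not tested. IGHM without a V gene was found in 7 of 100 and 6 of 93 IgG2b cells, against 12.9% and 12.6% of IgM cells.

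A second, non-productive V-D-J rearrangement was found in 7 of 100 IgG2b cells of the Cre+ library and in 12 of 93 of the Cre- library. IgM cells had one in 7.06% and 8.37%, and IgA cells in 12.6% and 3.23%. In the Cre- library 416 of the 557 IgA cells belong to a single lineage. In IgG2b cells the non-productive rearrangement also carried IGHG2B in 3 of the 7 and in 10 of the 12. In IgA cells the non-productive rearrangement carried IGHG2B in 4 of 26 cells of the Cre+ and in 9 of 18 of the Cre- library, and in IgM cells in 0 of 136 and 0 of 129, which allows up to 2.21% and 2.33%.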

How the data were processed

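Receptor transcripts of 2 libraries were used, 1 per genotype. The authors deposited a table of contigs for each, with read counts and UMI counts per contig, and a table of clonotypes with counts of barcodes, per the file headers; contig length is in nucleotides. Cell Ranger and GRCm38 are named by the submitters' processing notes, with no version in the sources used here. All contigs carried the flags for called cells and high confidence. Counts were not normalised. Cells were barcodes with exactly 1 productive heavy chain; no doublet caller was run. As light chain the productive IGK or IGL contig of most UMIs was taken. A V gene's reference end needed 10 unswitched cells, which 74 genes had.

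Members, gene lists and measures were chosen with earlier results of these data known. Named were the constant, IGHJ and lambda genes, IGHV families with enough IgG2b cells, and the 10 IGHV and 5 IGKV genes with most IgG2b cells. Where a count was 0, the limit is 3 cells of the total. Intervals of medians are binomial order intervals, and those of differences combine both exact intervals. Coordinates are RefSeq's for GRCm38.p6, where 21 of 21 genes looked up were matched by symbol. Linking and mismatch steps were tested on simulated data with random CDR3s and untrimmed J ends. How often real cells join by chance or differ through trimming was therefore not tested there. Python 3.11.15, pandas 2.3.3, NumPy 2.4.6 and SciPy 1.17.1 were used.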

Additional observations from a re-analysis of the deposited data

Results flagged for a closer look

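The share of IGHV6-3 in IgG2b cells, less its share in IgM cells, was 5.61 percentage points in the Cre+ library and -1.91 in the Cre- library. It was picked out because its difference had opposite signs in the libraries and it was the 1 gene of those compared whose intervals stood apart. Opposite signs alone were also seen for other genes, among them IGHV1-64 and IGHV1-26. The IgG2b shares of IGHV6-3 differed by 6.92 points between the libraries (0.378 to 14.2, counting error only), with no test and no replicate behind it. That interval rests on the same Cre+ share by which the gene was picked, so it adds no separate evidence.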

How the results depend on the processing

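No paired analysis was possible because each genotype has 1 library. Over 39 values, 162 alternatives were computed, of which 138 stayed within the interval of the value as reported, 23 lay outside it and 1 turned its sign. With each lineage and class counted once, IgG2b was 38.3% of switched cells in the Cre+ library and 37.6% in the Cre- library, and 78.2% of IgG cells in the Cre+ library; without the largest lineages these shares of switched cells were 32.2% and 36.3%. The Cre+ minus Cre- difference in the share of switched cells, 13.6 points as reported, was 0.66 points (-8.40 to 9.69) with lineages counted once and turned round to -4.17 points (-12.3 to 3.89) without the largest lineages. The difference in the share of IgG cells, -17.6 points as reported, was -4.37 points (-15.2 to 6.85) with lineages counted once. Cells in lineages of 2 or more fell to 9% with identical CDR3s in the Cre+ library, and by the authors' clonotypes to 6% in the Cre+ library and 7.53% in the Cre- library. An IgM, IgD, IgG1 or IgA cell shared the lineage of 12% of IgG2b cells in the Cre+ library and 4.30% in the Cre- library; at 90% identity this was 5% in the Cre+ library, with identical CDR3s 1%, and by the authors' clonotypes 0% in both, which allows up to 3% and 3.23%. J mismatches over 6 nucleotides stood at 22% and 24.7% (IgM 5.35% and 4.86%), and over 12 at 53% and 64.5% (IgM 36.8% and 35.7%). V-end mismatches over 3 nucleotides stood at 30.9% and 17.2% (IgM 5.18% and 5.80%). The means, which a few cells carry, were 124 and 176 heavy-chain UMIs, and 6.42 and 4.88 for the ratio of light to heavy UMIs. Settings on shared barcode ends, and those on IGHA contigs, were chosen after seeing the data. Single V genes rest on few IgG2b cells, and differences of a few percentage points in their use were not detectable at this depth.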
